A study of Rattus norvegicus with 150 samples.

Results

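The 84 genes described here were the most abundant transcripts of rat gastrocnemius, a calf muscle, outside 9 identifiers that the selection rule names as mitochondrial. They were chosen by level alone, as the genes with a mean of at least 1000 CPM (the count divided by the total of its library, per 1000000 counts) over the 31 libraries from muscle with tantalum pellets. This took 84 of the 32545 genes in the count table, and 93 genes reached the threshold before the 9 identifiers were left out. The table gives Ensembl identifiers without gene names, so no member could be named or given a role here, and the labelled tissue could not be checked against muscle markers.

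Every rat was a male Sprague-Dawley of about 30 days at purchase, acclimated for at least 2 weeks, and carried 4 metal pellets (1 mm by 2 mm), 2 in the gastrocnemius of each hind limb. The 19 groups were cobalt (Co) at 1, 3, 6 and 12 months after surgery, nickel (Ni) at 1, 3 and 6 months, a metal labelled P at 1, 3, 6 and 12 months, depleted uranium (DU) at 1, 3, 6 and 12 months, and tantalum (Ta), the surgical sham, at 1, 3, 6 and 12 months. Each group had 8 libraries except Ta at 1 month and Co at 6 months, with 7 each. The labels do not spell out P, and the study's design text names lead (Pb) among the sequenced metals. No group was free of surgery or of a pellet, and the labels do not tie a library to one rat or limb, so p-values measure the spread between these libraries.

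A skeletal muscle fibre devotes much of its messenger RNA to few genes. In general these encode the thick and thin filament proteins of the sarcomere, the pumps and binding proteins that move calcium, and the enzymes of glycolysis and creatine phosphate that supply ATP quickly. Fast and slow fibres carry different isoforms of many of these proteins, and the gastrocnemius holds both. The mitochondrial genome is transcribed apart from the nuclear one, and its transcripts take a further large share of muscle RNA. Which of these roles the 84 members have was not analysed here.

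Library totals lay between 12674115 and 21921859 counts, with a median of 15778710. At that median total 1000 CPM is 15779 counts, with a counting error of 0.796%, which leaves out every other source of error. One library stood apart before any comparison. DU at 3 months replicate 2 gave the 84 members 2.22% of its counts and the 9 left-out identifiers 10.5%, and its median correlation with the other libraries of its group was 0.435. In it 68 of the 84 members were under 100 CPM, 40 were under 10 CPM and 6 reached 1000 CPM, and the main results that include it are also given without it. Members also took little of DU at 12 months replicate 6 (12.7%), Co at 3 months replicate 2 (19.6%) and DU at 12 months replicate 5 (22.2%). Ta at 3 months replicate 2, one of the libraries that chose the members, had 34 of them below and 19 above the range of the other 30 Ta libraries.

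The members took 38.6% ± 4.57 (SD, n = 31) of all counts in Ta libraries, which is the quantity that chose them and is given as a description. The 9 left-out identifiers took 19.8% ± 6.24 and the other 32452 genes together took 41.6% ± 4.64 of the same libraries. Over all 150 libraries the members took between 2.22% and 48.5%, with a median of 37.1%.

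The 2 most abundant members stood well above the rest. ENSRNOG00000049695 averaged 39153 ± 17517 CPM in Ta libraries, with a lowest value of 3482, a median of 40392 and a highest of 70042. ENSRNOG00000017786 averaged 35819 ± 8192 CPM, with 14677, 37105 and 51289 as its lowest, median and highest Ta values. The SD of ENSRNOG00000049695 was the larger of the 2, and the ranges of the 2 genes overlapped. Next came ENSRNOG00000016837 at 17836 ± 4478 CPM and ENSRNOG00000018184 at 17692 ± 6036 CPM, which did not differ beyond that spread. The 5th to 10th members averaged between 10662 and 15323 CPM. The 10 most abundant members together took 19.1% of Ta counts and 49.6% of the counts of all 84.

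The order at the top depended on the group. Without the library that stood apart, ENSRNOG00000049695 had the highest group mean in 10 of the 19 groups and ENSRNOG00000017786 in the other 9. Between 9 and 10 of the 10 most abundant members were also among the 10 most abundant genes of every group, the left-out identifiers aside. ENSRNOG00000049695 averaged 47735 ± 21857 CPM in P at 6 months, its highest group, and 24864 ± 13361 CPM in Co at 6 months, its lowest. ENSRNOG00000017786 averaged 24927 ± 9780 CPM in DU at 12 months, its lowest group, and 43843 ± 7394 CPM in Ta at 1 month, its highest. For both genes the libraries of these extreme groups overlapped with those of every other group.

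At the edge of the rule, the 3 members just inside were ENSRNOG00000050630 at 1026 CPM, ENSRNOG00000019851 at 1021 CPM and ENSRNOG00000018656 at 1001 CPM in Ta libraries. The 3 genes just outside were ENSRNOG00000005269 at 963 CPM, ENSRNOG00000020922 at 957 CPM and ENSRNOG00000008289 at 946 CPM. Their SDs over the Ta libraries lay between 185 and 1095 CPM, wider than the gaps between neighbours. Chosen by the mean over the 119 libraries of the other metals instead, the set held 80 genes, and all 80 were among the 84.

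Membership was largely shared by the groups. Without the library that stood apart, 58 of the 84 members averaged at least 1000 CPM in all 19 groups, and 17 reached 1000 CPM in every library. The group means of 66 members differed by over 1.5 times between their highest and lowest group, and those of 21 members by over 2 times. Co at 3 months was the lowest of the 19 groups for 24 members, Co at 6 months for 17 and DU at 12 months for 16. Ta at 1 month was the highest group for 14 members. Choosing members by their Ta mean favours Ta groups as highest and other metals as lowest, so these counts are a description.

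**Figure D1:**
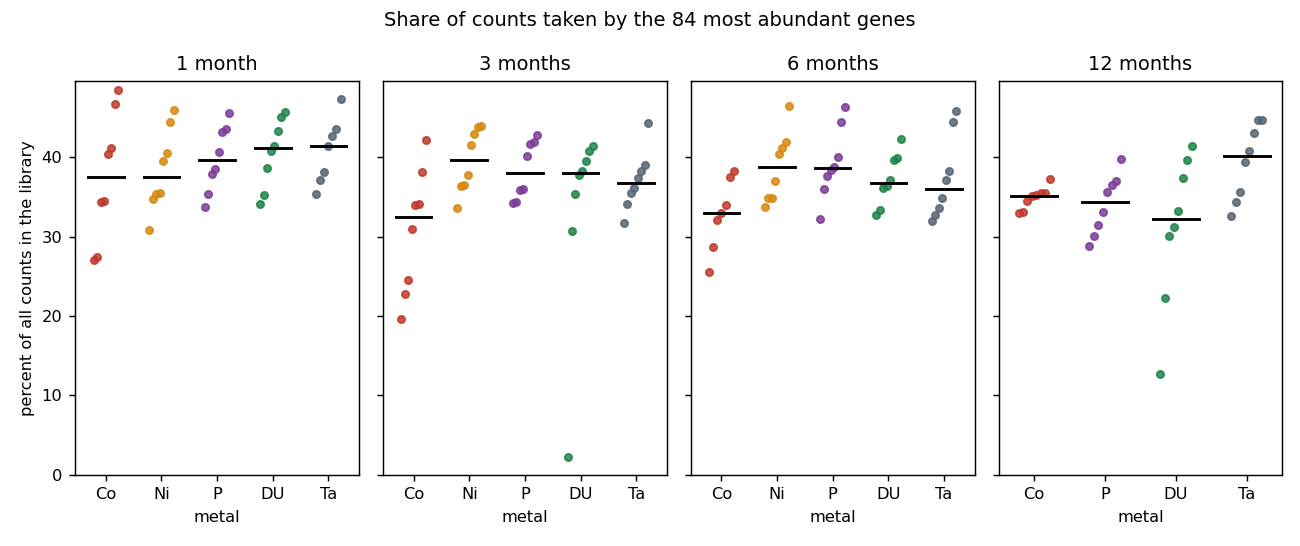
Percent of all counts taken by the 84 members in each library (y axis), by metal (x axis) in 1 panel per time, with 1 point per library and the group median as a bar. Group medians lie between 32.2% and 41.4%, the groups overlap, and DU at 3 months holds 1 library at 2.22%.

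The share of counts taken by the members was lowest in Co at 3 months, DU at 12 months and Co at 6 months. It averaged 30.8% ± 7.85 (SD, n = 8) in Co at 3 months and 37.0% ± 3.78 (n = 8) in Ta at 3 months. In DU at 12 months it averaged 30.98% ± 9.57 and in Ta at 12 months 39.4% ± 4.73 (n = 8 each). In Co at 6 months it averaged 32.7% ± 4.53 (n = 7), against 37.3% ± 5.26 (n = 8) in Ta at 6 months. All 3 metal groups overlapped with their Ta group. The share is a sum over genes chosen by level and is given as a description, with no test.

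By group means, the rest of the counts was divided differently in these groups. In Co at 3 months the other genes took 52.9% of counts on average and the left-out identifiers 16.3%, against 42.0% and 21.0% in Ta at 3 months. In Co at 6 months the left-out identifiers took 25.5% and the other genes 41.8%, against 22.02% and 40.6% in Ta at 6 months. The median share of the left-out identifiers was 22.1% in that Co group and 22.3% in Ta, and Co replicate 1 had 40.4%. In DU at 12 months the other genes took 48.5% and the left-out identifiers 20.5%, against 41.6% and 18.997% in Ta at 12 months. The median share of the other genes was 43.3% in that DU group and 40.7% in Ta. DU replicates 5 and 6 had 61.0% and 69.1%. Why the shares differed was not tested. In whole muscle tissue, less RNA per fibre, fewer fibres in the piece sampled and other causes cannot be told apart.

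Some genes outside the set reached the same threshold in other groups. Across the 19 group means, 39 other genes reached 1000 CPM, and 16 of these were under 100 CPM in Ta libraries. Without DU at 3 months replicate 2 the counts were 30 and 7. In Co at 3 months 10 such genes reached the threshold while 68 of the 84 members did. ENSRNOG00000048402 ranged between 20.6 and 19437 CPM in Co at 3 months with a median of 1960, and between 0.0634 and 1.06 CPM in Ta at 3 months with a median of 0.267. ENSRNOG00000049829 ranged between 23.6 and 15016 CPM in Co at 3 months with a median of 1163, and between 0.205 and 2.96 CPM in Ta at 3 months. For both genes every Co library was above every Ta library of that time. They had the highest Co means at 3 months of the 39 genes and were named after their values were seen.

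High abundance did not come with low variation. The SD of log2(CPM + 1) between libraries of the same group had a median of 0.51 over the 84 members, leaving out the library that stood apart. It was 0.37 for the 915 genes between 100 and 1000 CPM in Ta, 0.38 for the 5548 genes between 10 and 100 CPM and 0.44 for the 5061 genes between 1 and 10 CPM. The share of a gene's variance that lay between the 19 groups had a median of 18.9% for members, and 24.5%, 25.9% and 27.3% for the same 3 classes. On TMM-scaled values the median SD over the 149 libraries was 0.61, against 0.54 on CPM.

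The members ranged widely in how much they varied. The least variable over all 150 libraries were ENSRNOG00000020266, ENSRNOG00000001049, ENSRNOG00000002840, ENSRNOG00000010389 and ENSRNOG00000015385, with SDs between 0.29 and 0.38 on the log2 scale. Without the library that stood apart they were ENSRNOG00000015385, ENSRNOG00000005480, ENSRNOG00000020266, ENSRNOG00000019851 and ENSRNOG00000002840, with SDs between 0.25 and 0.30, so that library decided part of the list. At the other end, ENSRNOG00000016983, ENSRNOG00000028041, ENSRNOG00000020955, ENSRNOG00000017441 and ENSRNOG00000001285 had SDs over 2 on the log2 scale in the 149 libraries without the one apart. No other member was above 2, and 37 members were under 0.5.

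These 5 most variable members went up and down together. Across the 149 libraries their pairwise correlations on log2(CPM + 1) lay between r = 0.930 and r = 0.987 (Spearman's rho between 0.913 and 0.989), and between 0.925 and 0.987 within groups. They were picked for their spread in the same libraries, and all pairs share library depth, so these values are a description. Their summed level was 33.5 CPM in DU at 6 months replicate 8 and 66586 CPM in Ta at 3 months replicate 2, a ratio of 1988. A wide range lay inside single groups. The sum had a lowest value of 38.2, a median of 1779 and a highest of 18696 CPM in Ta at 6 months, and 85.8, 2909 and 18977 CPM in Ta at 1 month. Co at 6 months had the narrowest range, with 5106, 12259 and 18656 CPM, and it overlapped with every other group.

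**Figure D2:**
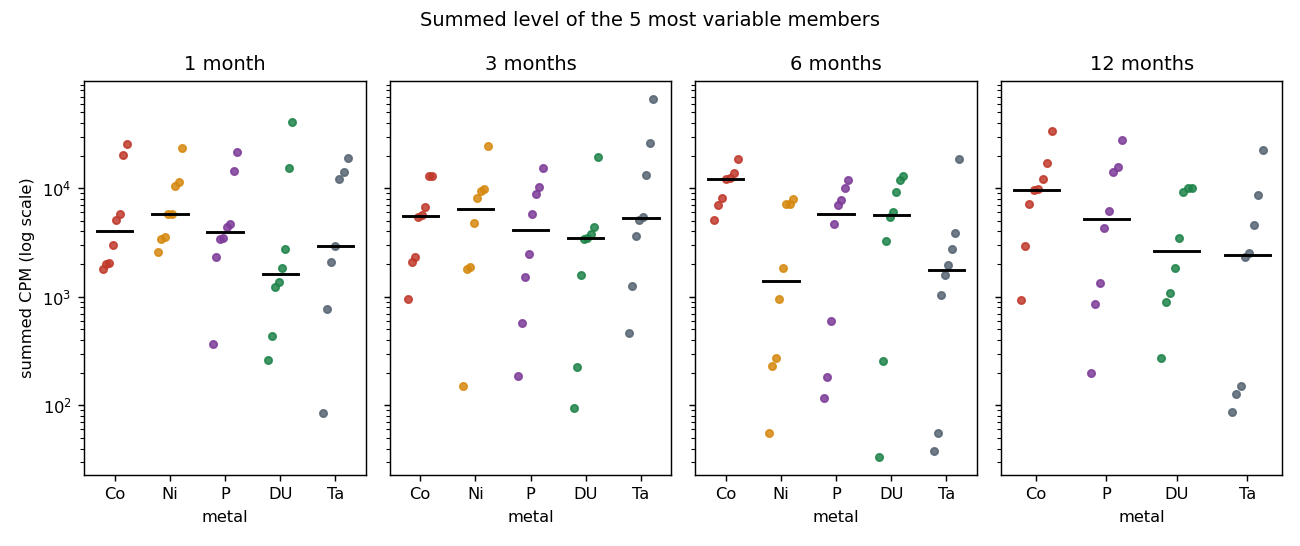
Summed CPM of the 5 most variable members in each library on a log axis, by metal in 1 panel per time, with the group median as a bar. The highest library of a group is between 3.65 and 489 times its lowest, and the groups overlap at each time.

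By likeness to the mean of these 5, the next members were ENSRNOG00000000875 (r = 0.868), ENSRNOG00000017833 (r = 0.817), ENSRNOG00000010524 (r = 0.805) and ENSRNOG00000016731 (r = 0.800), each over 149 libraries. All 9 fell in the same block of 12 when the members were clustered by average linkage on 1 − r and parted at a distance of 0.4. The clustering gave 14 blocks, with 24, 17, 12, 10, 4, 3, 3, 2, 2, 2, 2, 1, 1 and 1 members. The block of 24, led by ENSRNOG00000049695, held 37.3% of the members' Ta counts. The block of 10, led by ENSRNOG00000018184, held 24.0%, the block of 17, led by ENSRNOG00000017786, held 19.4%, and the block of 12 held 9.16%. The mean log2 levels of the block of 12 and the block of 10 moved in opposite directions (r = -0.57, rho = -0.72, and r = -0.59 within groups). The blocks of 24 and 10 moved together (r = 0.66, rho = 0.54).

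Ta at 3 months replicate 2 was among the libraries that gave these blocks and correlations. Its values are an example of the opposite movements and no separate support for them. There 9 of the 10 most abundant members were below every other Ta library, and 31 of the 84 members were inside the range of the other 30. All 10 members of the block of 10 and 20 of the block of 24 were below that range, and 11 of the block of 12 were above it. ENSRNOG00000049695 had 3482 CPM there, against 10062, 40543 and 70042 CPM as the lowest, median and highest of the other Ta libraries. ENSRNOG00000018184 had 1405 CPM, against 7200, 18499 and 28440 CPM. ENSRNOG00000017786 was inside the range, at 44177 CPM. In this library the members took 31.7% of the counts, the lowest share of the Ta libraries, and its total of 15771170 counts was close to the median. Without it the rule would have taken 81 genes, all of them among the 84.

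A pair of small blocks followed the left-out identifiers. The mean log2 level of ENSRNOG00000033615, ENSRNOG00000001049, ENSRNOG00000030478 and ENSRNOG00000043866 correlated with the percent of counts in the 9 left-out identifiers across 149 libraries (r = 0.80, rho = 0.77, r = 0.76 without the 2 farthest libraries, r = 0.81 within groups). The pair ENSRNOG00000029042 and ENSRNOG00000031053 did so more closely (r = 0.87, rho = 0.90, r = 0.88 without the 2 farthest, r = 0.88 within groups). Both measures are parts of the same library totals, so this is a description. These members have no gene names here. Mitochondrial genes beyond the 9 left out may be among them, and this was not tested. The sum of the block of 4 was 40697 CPM in Co at 6 months replicate 1, where the left-out identifiers took 40.4%, and 25037 CPM in Ta at 6 months replicate 4.

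**Figure D3:**
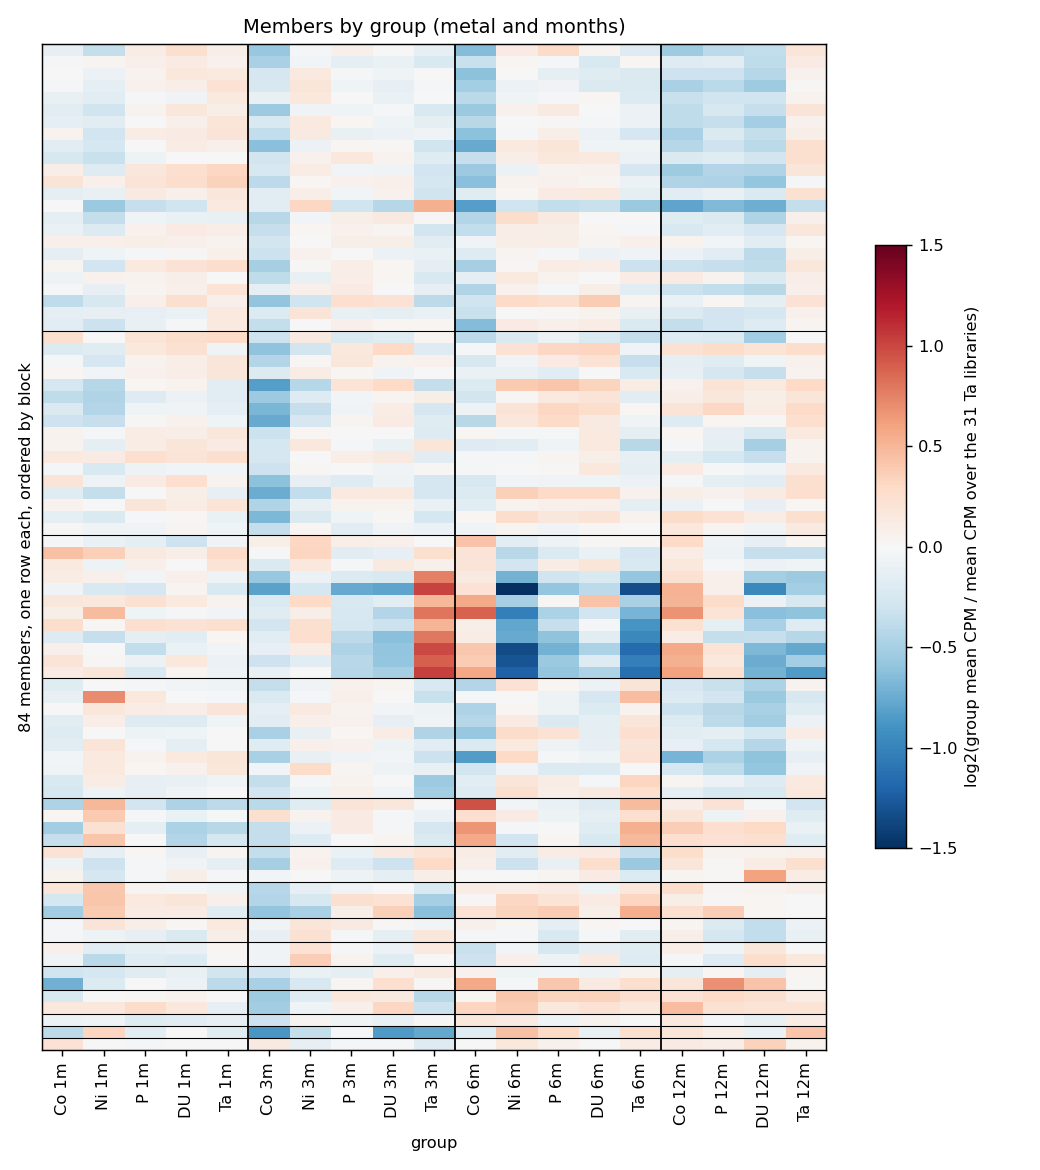
Log2 ratio of each group's mean CPM to the mean over the 31 Ta libraries, with 84 members as rows ordered by block (blocks divided by lines) and 19 groups as columns; DU at 3 months is without replicate 2, and colour stops at ±1.5. Of 1596 cells, 1475 lie within 0.5 of 0, 94 are lower and 27 higher, and 18 of the lower ones are in Co at 3 months.

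The metal groups were next compared with Ta at the same time, 15 comparisons in all, by edgeR's quasi-likelihood test with Benjamini-Hochberg adjustment over all genes tested and a threshold of 0.05. All 84 members passed the filter on low counts in every comparison. The Ta libraries in these comparisons are the ones that chose the members, and all metals at a time share them. No member was called in 14 of the 15 comparisons, and 1 was called in P at 12 months. In 10 of the comparisons no gene at all was called (0% of genes), namely Co, Ni, P and DU at 1 month and at 6 months, Ni at 3 months and DU at 3 months. The other 5 called 6.44% of all genes in Co at 3 months (6.17% higher and 0.274% lower), 2.38% in P at 12 months (1.93% higher and 0.452% lower), 0.338% in P at 3 months (0.0989% higher and 0.239% lower), 0.0083% in Co at 12 months and 0.00826% in DU at 12 months. In those without any call, between 328 and 3223 genes and between 0 and 18 members had an unadjusted p under 0.05, and DESeq2 called 0 members and between 1 and 1239 genes.

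In Co at 3 months all 84 members had lower fitted values than in Ta, yet none passed the test. Their median log2 fold change was -0.52, against -0.03 over all 12429 genes tested, and 5 members had an unadjusted p under 0.05. Over all genes, 767 were higher and 34 lower, and called genes were 26.4% of those under 1 CPM in Ta, 8.92% between 1 and 10, 2.16% between 10 and 100, 0.546% between 100 and 1000 and 0% of members. ENSRNOG00000016983 had the largest difference, with a log2 fold change of -1.78 ± 0.90 (SE, adjusted p = 0.234), and ENSRNOG00000020266 the smallest, at -0.03 ± 0.20 (adjusted p = 0.931). DESeq2 called 1 member lower (11.9% of all genes called), ENSRNOG00000020557, and edgeR with all 150 libraries in 1 model called 10 members lower (22.1%). With library totals in place of TMM factors the all-gene median was 0.38, 72 of the 84 members were below 0 with a median of -0.23, and none was called. Leaving out Co replicate 4 gave 1 call.

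In P at 12 months ENSRNOG00000012658 fell. It had a lowest, median and highest level of 805, 933 and 1100 CPM in P, against 1050, 1191 and 1358 CPM in Ta at 12 months, and 6 of 8 P libraries were below all Ta libraries while the ranges overlapped. Its log2 fold change was -0.39 ± 0.10 (SE, n = 8 each; adjusted p by edgeR = 0.0404). Of the 84 members, 67 were below 0, with a median of -0.23, and 18 had an unadjusted p under 0.05. The same values over all genes are not given here, so these describe the members only. The same limit holds in Co at 3 months and DU at 12 months for the unadjusted counts and the counts of members below 0. The call was lost with library totals (adjusted p = 0.0551), with no filter on low counts (0.0775), and with all 150 libraries in 1 model (0.762). It was also lost on leaving out any 1 of 13 of its 16 libraries, with adjusted p between 0.0518 and 0.0847, and kept without Ta replicate 8 or P replicate 3 or 8.

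In Co at 12 months no member passed the test, but 31 of 84 had an unadjusted p under 0.05, where 1625 of 12045 genes did. ENSRNOG00000049695 had 20135, 27619 and 38667 CPM as lowest, median and highest in Co, against 21945, 48154 and 61530 CPM in Ta at 12 months, with overlap. Its log2 fold change was -0.85 ± 0.22 (SE; adjusted p by edgeR = 0.164). DESeq2 called 10 members, all lower (1.05% of all genes called), ENSRNOG00000049695 with an adjusted p of 0.0161 among them. All 10 belonged to the block of 24.

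In DU at 12 months 75 of 84 members were below 0 with a median log2 fold change of -0.45, against 0.04 over all genes, and none passed the test (8 with an unadjusted p under 0.05). Without replicates 5 and 6 of DU at 12 months the median was -0.20 and 69 members were below 0, again with none called. In DU at 3 months the median was -0.06 with the library that stood apart and 0.12 without it, and 2 members were then called higher (6.05% of all genes called). These were ENSRNOG00000012609, with a log2 fold change of 1.08 (edgeR adjusted p = 0.0378), and ENSRNOG00000003256, with 0.80 (0.0409). DESeq2 also called both genes higher in P at 3 months, against the same Ta libraries, where edgeR called no member. The log2 fold changes there were 0.78 for ENSRNOG00000012609 (adjusted p by DESeq2 = 0.0068) and 0.82 for ENSRNOG00000003256 (0.00423).

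**Figure D4:**
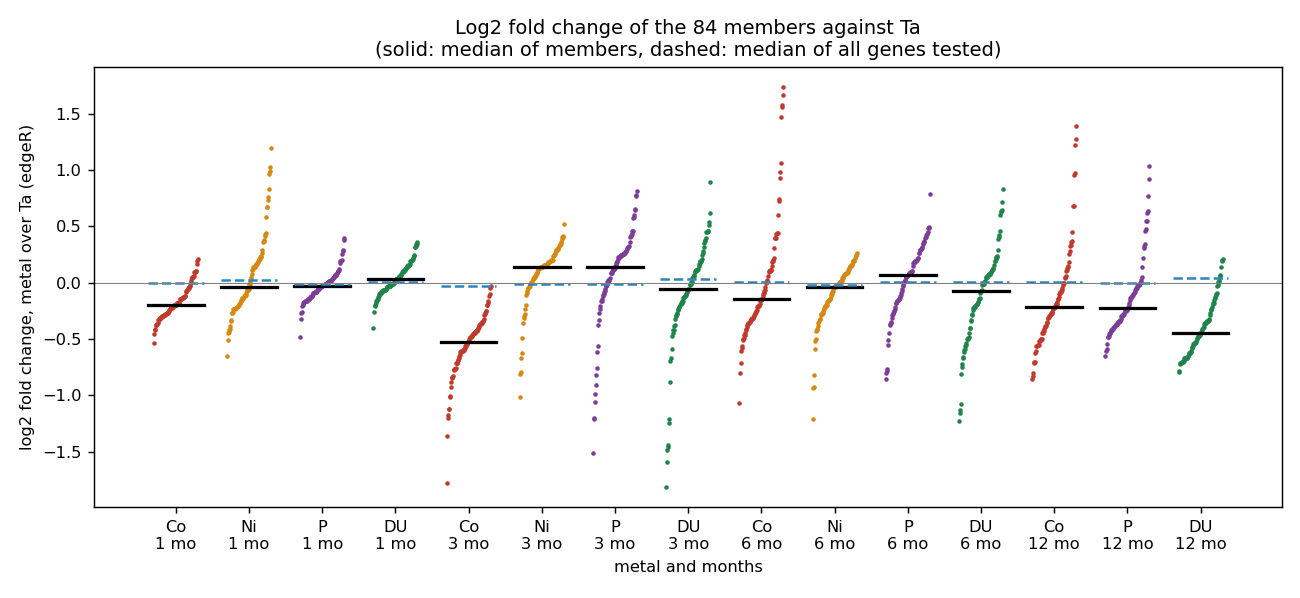
Log2 fold change, metal over Ta at the same time, of each of the 84 members (points, sorted) in the 15 comparisons, with the members' median as a solid bar and the median of all genes tested as a dashed bar. All points lie below 0 in Co at 3 months, and the widest upper tails are in Co at 6 and 12 months.

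The highest fitted values in Co at 6 and 12 months were those of members of the block of 12, and none of these passed the test. In Co at 12 months the largest positive fitted value was that of ENSRNOG00000017441, with a log2 fold change of 1.39 ± 0.94 (SE, adjusted p = 0.517). It ranged between 127 and 4009 CPM in Co with a median of 1251, and between 15.3 and 2628 CPM in Ta at 12 months with a median of 294. The libraries overlapped over most of their range.

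Time was compared over Ta, Co, P and DU together, the metals sampled at all 4 times, with metal as a term in the same model. At 3 against 1 month 2 members were lower and none higher, where 9.99% of all genes were called (6.65% higher and 3.34% lower). At 6 against 1 month 10 members were higher and 1 lower (37.2% of all genes called, 17.7% higher and 19.5% lower), and at 12 against 1 month 2 were higher and 9 lower (31.5%, with 15% higher and 16.5% lower). As a share of members this was 2.38%, 13.1% and 13.1%, below the share of all genes each time. Without the library that stood apart, 2 members were called at 3 months (4.83% of all genes), 17 at 6 months (41.4% of all genes) and 18 at 12 months (35.3%). Without Ta at 3 months replicate 2 the counts were 2, 11 and 12.

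ENSRNOG00000017786, the second most abundant member, was lower at each later time. It had a lowest, median and highest level of 27552, 42684 and 59873 CPM at 1 month (n = 31), 17.3, 33510 and 44177 CPM at 3 months (n = 32, lowest in the library that stood apart), 6959, 31247 and 42416 CPM at 6 months (n = 31) and 10321, 29606 and 46465 CPM at 12 months (n = 32). The times overlapped, with the medians of the 3 later times all under that of 1 month. Against 1 month its log2 fold changes were -0.50 ± 0.15 at 3 months (edgeR adjusted p = 0.0205), -0.43 ± 0.15 at 6 months (0.0202) and -0.46 ± 0.15 at 12 months (0.0136). At 3 months the other fall was ENSRNOG00000012477, with a log2 fold change of -0.53 ± 0.16 (adjusted p = 0.0141). Without the library that stood apart the 3 month values were -0.45 ± 0.10 for ENSRNOG00000017786 (adjusted p = 0.00248) and -0.48 ± 0.11 for ENSRNOG00000012477 (0.00257).

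At 6 against 1 month the 2 largest rises were in the block of 4 that followed the left-out identifiers, and all 4 of its members were called, as were both of the pair that did so. ENSRNOG00000033615 had 2076, 3240 and 21578 CPM as lowest, median and highest at 6 months, against 1385, 2612 and 5130 CPM at 1 month. Its log2 fold change was 1.11 ± 0.23 (SE; adjusted p by edgeR = 9.39e-05). ENSRNOG00000030478 had 1167, 1644 and 8605 CPM at 6 months, against 734, 1372 and 2763 CPM at 1 month, with a log2 fold change of 1.02 ± 0.21 (adjusted p = 8.92e-05). For both genes the 2 times overlapped and the upper part of the 6 month range lay above every 1 month library, with Co replicate 1 the highest. Without that library, DU at 3 months replicate 2 and DU at 12 months replicates 5 and 6, the log2 fold changes were 0.75 for ENSRNOG00000033615 and 0.72 for ENSRNOG00000030478, and both kept their call. The percent of counts in the left-out identifiers moved with these genes, and its part in the result was not tested.

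At 12 against 1 month ENSRNOG00000031053 and ENSRNOG00000030478 rose. ENSRNOG00000031053 had 1321, 2487 and 4186 CPM as lowest, median and highest at 12 months, against 572, 1701 and 3193 CPM at 1 month, with overlap. Its log2 fold change was 0.63 ± 0.17 (edgeR adjusted p = 0.00208), and that of ENSRNOG00000030478 was 0.61 ± 0.20 (adjusted p = 0.0156). The 9 members that fell were 5 of the block of 24, 3 of the block of 17 and 1 of the block of 10. ENSRNOG00000006930 had 148, 1859 and 3281 CPM at 12 months, against 1166, 2860 and 4530 CPM at 1 month, a log2 fold change of -0.59 ± 0.18 (adjusted p = 0.00700). ENSRNOG00000018462 had 406, 860 and 1864 CPM at 12 months, against 597, 1377 and 3032 CPM at 1 month, a log2 fold change of -0.51 ± 0.18 (adjusted p = 0.0201). The split of rises and falls changed with few libraries. Without DU at 12 months replicates 5 and 6, Co at 6 months replicate 1 and DU at 3 months replicate 2 there were 13 members higher and 8 lower (40.6% of all genes called).

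Within Ta alone, 12 against 1 month called 4 members, all higher, where 17.7% of all genes were called (7.73% higher and 9.98% lower). Of these 4, 0 were among the 11 members called at 12 against 1 month over the 4 metals. The block of 17 held 3 of the 4, while 3 other members of it were lower over the 4 metals. The overlap over all genes is not given here. ENSRNOG00000018220 had 2488, 3659 and 4257 CPM as lowest, median and highest in Ta at 12 months (n = 8), against 1778, 2726 and 3488 CPM in Ta at 1 month (n = 7), and the log2 ratio was 0.51 ± 0.17 (SE; adjusted p = 0.0428, edgeR). ENSRNOG00000031364 had 1025, 1322 and 1606 CPM at 12 months, against 767, 973 and 1306 CPM at 1 month, with a log2 fold change of 0.42 ± 0.14 (adjusted p = 0.0403). The groups overlapped for both genes. No member was called in Ta with library totals, with no filter on low counts or with all 150 libraries in 1 model, while DESeq2 called 9 (22.4% of all genes). Leaving out 1 library at a time gave between 0 and 7 calls.

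Any difference among the 19 groups was called for 26 of 84 members, where 75.0% of all genes were called. Without DU at 3 months replicate 2 it was 49 of 84 members (58.3%) and 76.8% of all genes, and with library totals 13 members (15.5%) and 74.2%. All 4 members of the block of 4, all 3 of a block of 3 led by ENSRNOG00000019810, 7 of the block of 17 and 3 of the block of 24 were among the 26, and none of the block of 12 was. The smallest p-values were those of ENSRNOG00000031053, ENSRNOG00000033615, ENSRNOG00000030478 and ENSRNOG00000031364. ENSRNOG00000031053 had its highest group median, 3555 CPM, in P at 12 months and its lowest, 1107 CPM, in Co at 3 months. ENSRNOG00000031364 had its highest group median, 1338 CPM, in DU at 6 months and its lowest, 587 CPM, in Co at 3 months.

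**Figure D5:**
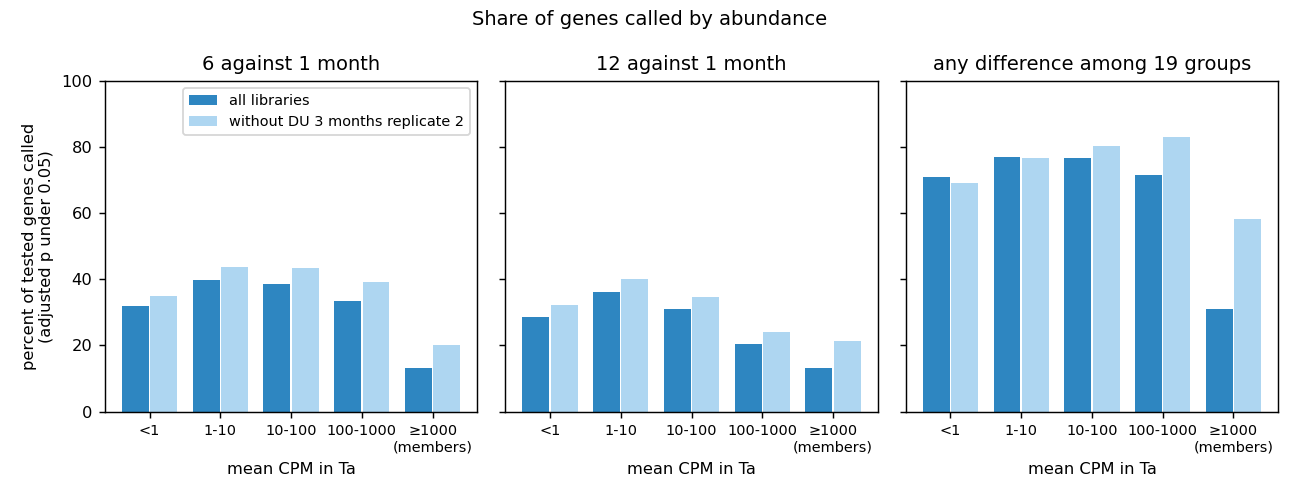
Percent of tested genes called (y axis) in classes of mean Ta CPM (x axis), members rightmost, for 6 against 1 month, 12 against 1 month and any difference among 19 groups, with all libraries (dark) and without DU at 3 months replicate 2 (light). Members have the lowest bar in each panel, at 13.1% with all libraries in both time comparisons.

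The share of genes called was lowest in the most abundant class in each of these comparisons. At 12 against 1 month it was 36.1% of genes between 1 and 10 CPM in Ta, 30.9% between 10 and 100, 20.4% between 100 and 1000 and 13.1% of members. At 6 against 1 month it was 39.8%, 38.6%, 33.4% and 13.1%. Without DU at 3 months replicate 2 it was 40.1%, 34.6%, 24.2% and 21.4% at 12 months, and 43.7%, 43.3%, 39.1% and 20.2% at 6 months, so the 12 month gap between members and the class below them was smaller.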

How the data were processed

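Whole gastrocnemius muscle was sequenced as stranded total RNA (1000 ng per library, paired reads of 100 bases, 10 samples per lane), per the labels' protocols. The authors deposited raw read counts per Ensembl gene, and HISAT2 2.0.5, featureCounts 1.5.0-p3 and the Rnor_6.0 build are named in the submitters' processing notes. CPM is the count divided by the total of its library, and log2 levels are log2(CPM + 1). Of 32545 identifiers 0 were paired with a name by the 47357 entries of the reference table, so gene lists and cell type markers could not be used and no sequence is shown.

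The members and lists were chosen with earlier results of these data known. Tests used edgeR 4.0.16 (quasi-likelihood, filterByExpr, TMM, robust) with Benjamini-Hochberg adjustment over all genes tested and a threshold of 0.05, on the groups compared, with metal as a term for time. SE is the log2 fold change over the square root of F. Alternatives were DESeq2 1.42.0 (also its size factors), library totals, no filter, a replicate block, all 150 libraries in 1 model, libraries left out and other thresholds for membership. Genes were named by level, by variation, by position at the threshold and by test, with at most 2 rises and 2 falls per comparison, except where said. The lowest chi-square per degree of freedom between 518 pairs of libraries of a group was 11.5, so none was counted as a duplicate. The fits were tested on simulated data.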

Additional observations from a re-analysis of the deposited data

Results flagged for a closer look

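In DU at 3 months replicate 2 the 84 members took 2.22% of the counts, far from the nearest other library of its group at 30.8%, a gap of 0.729 of the group's whole range. It was the only value flagged among 25 groups of values examined. By chance about 1 in 20 groups is flagged, so 1 flag among 25 groups is not rare by itself. The library had already stood apart before this check. Its part in each result is given by the values without it.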

How the results depend on the processing

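Of the checks on named genes, 135 stayed on the same side of the threshold and 42 lost the call, all for ENSRNOG00000012658 in P at 12 months and ENSRNOG00000018220 and ENSRNOG00000031364 in Ta, and no direction changed. DESeq2 called 1 member in Co at 3 months, 10 in Co at 12 months, 3 in P at 3 months, 2 in P at 12 months and 9 in Ta at 12 against 1 month. With all 150 libraries in 1 model the counts were 10 in Co at 3 months, 2 in DU at 3 months, 1 in DU at 12 months, 0 in P at 12 months and 0 in Ta at 12 against 1 month. Library totals gave 0 in P at 12 months, 7 at 6 against 1 month, 0 in Ta and 13 among 19 groups, and put the median log2 fold change of all genes at 0.38 in Co at 3 months and 0.32 in DU at 12 months. No filter gave 0 in P at 12 months, 7 at 12 against 1 month and 0 in Ta. Without DU at 3 months replicate 2 there were 2 in DU at 3 months, 17 at 6 months, 18 at 12 months and 49 among 19 groups. Without Ta at 3 months replicate 2 there were 0 in each metal at 3 months, 2 at 3 months, 11 at 6 months, 12 at 12 months and 25 among 19 groups. With 4 libraries left out there were 6 at 3 months (7.45% of all genes called), 21 at 12 months (40.6%) and 49 among 19 groups (76.7%). Leaving out 1 library at a time gave 0 to 1 in Co at 3 months and at 12 months, 0 to 2 in P at 12 months and 0 to 7 in Ta. A threshold of 500 CPM gave 73 of 164 members called among 19 groups (44.5%) and 2000 CPM gave 10 of 43 (23.3%), where 75.0% of all genes were called. The members' median share over all 150 libraries was 31.3% of counts at 2000 CPM, against 37.1% at the rule's threshold. It was 46.8% of the counts outside the left-out identifiers. Where no share of all genes is given for a setting, the count shows how the setting moved the calls. Such a count does not set the members apart from other genes. The cause of these changes was not tested.

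Deviations of same-numbered libraries had correlations between -0.418 and 0.403 over the pairs, and no comparison had all above 0.1. All were above 0 in Co at 3 months (0.0656 to 0.345) and in DU at 3 months (0.0103 to 0.237). Every other comparison held values below 0. With the replicate block the call in P at 12 months was lost (0 members, adjusted p = 0.262), and the other counts were within 1.5 times. A like count did not mean the same genes. In Ta at 12 against 1 month the replicate block kept ENSRNOG00000018220 and ENSRNOG00000031364 and lost ENSRNOG00000015085 and ENSRNOG00000015385. It newly called ENSRNOG00000023803, ENSRNOG00000014030 and ENSRNOG00000006783. Settings without DU at 3 months replicate 2, without Ta at 3 months replicate 2 and with 4 libraries left out were chosen after seeing the data. Counting error at 1000 CPM was 0.796%. Depth does limit the values near 0, such as those of ENSRNOG00000048402 in Ta, and ENSRNOG00000016983 had a count of 0 in Ta at 6 months replicate 1.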
